A study of Mus musculus with 6 samples.

Results

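The 6 genes described here encode surface molecules that leukocytes use to roll on, stick to and cross a vessel wall: Selplg, Cd44 and Spn, which carry ligands of the selectins, and Pecam1, Icam1 and Alcam, members of the immunoglobulin superfamily. They were chosen by symbol, with earlier results of these data known, and all 6 were found among the 20394 genes of the table. The cells were CD45+ cells sorted from digested joints of male C57BL/6 mice with antigen-induced arthritis, in which an immunised mouse receives the antigen into the knee. All mice had been primed with 10 μg methylated bovine serum albumin in complete Freund's adjuvant and were challenged in the joint with 100 μg of the same antigen on day 21. In 2 samples the mice were given PBS and in 4 samples they were given 300 μg of PEPITEM, a peptide that restrains leukocyte migration, into the peritoneum from day 21. The cells of all 6 samples were deposited as 1 table. Its 6 barcode libraries carry numbers that no source used here links to a treatment, so PBS and PEPITEM could not be compared. The libraries are called by those numbers below, and they are not replicates of a group.

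Leukocyte recruitment is usually described as a series of steps. Selectins on the vessel wall and on leukocytes first catch sugar-bearing ligands such as PSGL-1 (Selplg), so that cells tether and roll, integrins then bind immunoglobulin-type molecules such as ICAM-1 to arrest the cells, and PECAM-1 at the endothelial junctions takes part in the crossing. A selectin ligand works only when fucosyl-, sialyl- and other transferases have decorated its protein core. In an inflamed joint these steps bring neutrophils and monocytes into the synovium.

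In the mm10 genome Selplg (ENSMUSG00000048163) lies at chr5:113818536-113832644, Cd44 (ENSMUSG00000005087) at chr2:102811141-102901665 and Spn (ENSMUSG00000051457) at chr7:127132232-127137823. Pecam1 (ENSMUSG00000020717) lies at chr11:106654217-106750628 and Alcam (ENSMUSG00000022636) at chr16:52248996-52454074, and these 5 genes are on the minus strand. Icam1 (ENSMUSG00000037405) is on the plus strand at chr9:21015985-21028817. RefSeq promoter sequences (GRCm38.p6) were at hand for 4 of the 6 genes, Cd44, Spn, Icam1 and Alcam. The Icam1 promoter is shown because Icam1, together with Spn, differed most often between related classes, in 7 of 13 pairs each. For Icam1 6 of these differences were upward, a direction that depends on which class is named first. A further reason is that 2 motif types known from inflammatory gene control were found in the Icam1 promoter. RefSeq starts the gene at position 21015940, which is 45 bases before the GENCODE start given above, and positions in the promoter are counted from the RefSeq start. The 250 bases before it, chr9:21015690-21015939 on the plus strand, read 5′ to 3′ as follows, with both matches in capitals.
Icam1 promoter: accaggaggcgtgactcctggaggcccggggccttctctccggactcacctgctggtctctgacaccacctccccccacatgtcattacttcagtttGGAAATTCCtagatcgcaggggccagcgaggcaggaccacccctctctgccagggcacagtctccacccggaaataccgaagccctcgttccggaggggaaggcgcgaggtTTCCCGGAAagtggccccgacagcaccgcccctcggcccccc
The first match, GGAAATTCC, is an NF-kappaB-type sequence 153 to 145 bases before the start. Only these exact letters were searched, on both strands, and they occur in 94 of 32851 promoters of this length (0.286%). Other NF-kappaB-type sequences were not searched, so this is not the share of promoters with any such site. The second, TTCCCGGAA, fits the interferon-gamma-activated type TTCNNGGAA, lies 42 to 34 bases before the start, and this type occurs in 1333 promoters (4.06%). The matches do not overlap. Of the 4 genes with a promoter sequence, 1 held either of the searched patterns. A match says only that these letters are present.

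The table held 32953 cells, with 2919 to 9345 cells and 47273569 to 123367661 unique molecular identifiers (UMIs, each counting 1 captured RNA molecule) per library. Cells were placed in classes by marker genes, none of which is among the 6 genes, and 30804 cells received a class. The 28 classes with at least 30 cells were ranked and held 29303 cells. The other 1458 T cells, B cells and macrophages matched no subclass, and 2149 cells (6.52%) with a median of 19288 UMIs had no class. Some 138 barcode sequences occurred in 2 libraries, which concerns 276 cells (0.838%). The sort on CD45 was reflected in Ptprc, the gene of CD45, which had a UMI in 67.6% (mast cells) to 100% of the cells of the ranked leukocyte classes but in 15.4% of the 130 fibroblasts. These shares, like those of the defining markers, were not thinned, and mast cells had a median of only 4350 UMIs. Before a share of cells with a UMI of the 6 genes was set beside another, cells were thinned to 3000 UMIs and shallower cells were left out. This removed 712 mature and 111 immature neutrophils, 90 pre-B, 58 mast, 52 Ms4a1 B and 65 resident Lyve1 macrophage cells, and at most 48 in any other ranked class. Endothelial cells were too few to rank. The 9 found came from libraries 4 and 5, and in them Pecam1 stood at 814 UMIs per 1000000 UMIs of the class (CPM), Icam1 at 1495 CPM and Selp, the P-selectin gene, at 407 CPM.

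**Figure D1:**
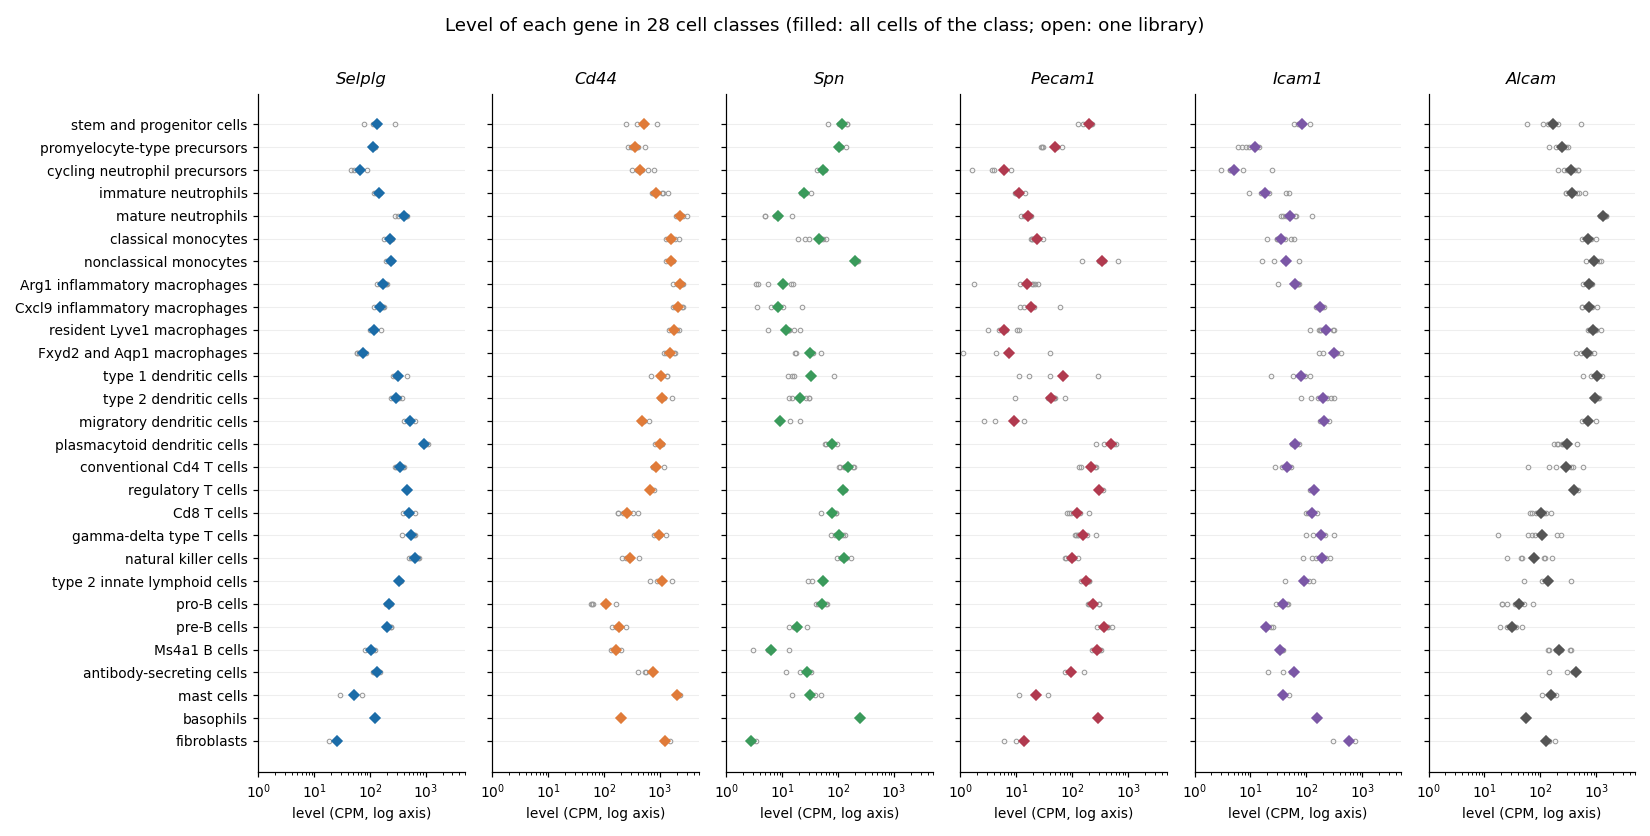
Level of the 6 genes in CPM (x axis, log scale) in each of the 28 ranked cell classes (y axis). Filled diamonds are all cells of a class and open circles are single libraries with at least 20 cells of it; library values of 0 are not drawn. Selplg was highest in plasmacytoid dendritic cells (933 CPM), Icam1 in fibroblasts (578 CPM) and Alcam in mature neutrophils (1333 CPM).

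Selplg, the gene of the main P-selectin ligand PSGL-1, was highest in plasmacytoid dendritic cells, at 933 CPM. The 6 libraries ran from 845 to 1103 CPM there, with a median of 936 CPM, and none of them overlapped the next class, natural killer cells at 645 CPM. Gamma-delta type T cells (543 CPM), migratory dendritic cells (523 CPM) and Cd8 T cells (502 CPM) followed, and their library ranges overlapped one another. Regulatory T cells (455 CPM) and mature neutrophils (405 CPM) came next. Conventional Cd4 T cells (340 CPM) and type 1 (320 CPM) and type 2 (297 CPM) dendritic cells stood below mature neutrophils. Pro-B (221 CPM), pre-B (200 CPM) and Ms4a1 B cells (105 CPM) were lower still. Mast cells (51.9 CPM) and fibroblasts (26.0 CPM) were at the bottom, 35.9-fold below the top. With every cell thinned to 3000 UMIs, 89.8% of plasmacytoid dendritic cells would have held a Selplg UMI. The same figure was 3.47% in fibroblasts, a cell type outside the blood lineage. Without thinning the shares were 98.7% (525 of 532 cells) and 10.8% (6.01 to 17.4), at median depths of 11536.5 and 14873.5 UMIs.

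Cd44, a receptor of hyaluronan whose sugar-modified forms also bind selectins, was highest in Arg1 inflammatory macrophages at 2283 CPM and in mature neutrophils at 2281 CPM. The library ranges of these classes, 1744 to 2644 CPM and 1980 to 3000 CPM, overlapped, and which of the pair came first changed with the settings of the analysis and without library 3, 5 or 6. Mast cells (2030 CPM), Cxcl9 inflammatory macrophages (2152 CPM) and classical monocytes (1593 CPM) were also near the top. The lowest classes were pre-B cells (189 CPM), Ms4a1 B cells (166 CPM) and pro-B cells (110 CPM). Every other ranked class, lymphoid or myeloid, stood above these B cell stages, and basophils (205 CPM) were the nearest. The thinned share of cells with a Cd44 UMI was 97.4% in Arg1 inflammatory macrophages and 19.6% in pro-B cells, and unthinned it was 98.4% and 45.0%, at median depths of 21430 and 8851 UMIs.

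Spn encodes CD43 (sialophorin), a long mucin-like protein that can serve as an E-selectin ligand on T cells. It was highest in 38 basophils, at 242 CPM (95% Poisson interval 196 to 296), where no library held 20 cells. Nonclassical monocytes came next at 201 CPM, and their 4 libraries, between 196 and 230 CPM, all stood above the highest library of conventional Cd4 T cells (195 CPM). Natural killer cells (125 CPM), regulatory T cells (123 CPM) and stem and progenitor cells (118 CPM) followed. At the other end were mature neutrophils (8.45 CPM), Ms4a1 B cells (6.18 CPM) and fibroblasts (2.79 CPM). Resting B cells are known to lack CD43 and serve here as a comparison, although fibroblasts were lower still (0.61% of cells with a Spn UMI after thinning, and 3.85% before it). After thinning, 1.37% of Ms4a1 B cells and 1.67% of mature neutrophils held a Spn UMI, against 47.1% of nonclassical monocytes. Unthinned, these shares were 3.15%, 4.37% (95% interval 3.89 to 4.90) and 79.5% (72.4 to 85.4), at median depths of 5620.5, 5140.5 and 8024 UMIs.

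Pecam1 encodes CD31, for which the cells were also stained at the sort. It was highest among ranked classes in plasmacytoid dendritic cells, at 494 CPM, with libraries from 273 to 620 CPM. Pre-B cells stood at 369 CPM, nonclassical monocytes at 339 CPM, Ms4a1 B cells at 284 CPM and pro-B cells at 239 CPM. No neighbours in the order were separated by their library ranges. Resident Lyve1 macrophages (6.05 CPM), cycling neutrophil precursors (6.08 CPM) and Fxyd2 and Aqp1 macrophages (7.27 CPM) were lowest. In the last of these, library 3 stood at 39.7 CPM while libraries 4 and 6 had none, and 5 of 264 cells held all 24 UMIs. The thinned share of cells with a Pecam1 UMI was 59.5% in plasmacytoid dendritic cells and 1.34% in resident Lyve1 macrophages, and unthinned it was 84.6% and 4.93% (95% interval 3.96 to 6.05), at median depths of 11536.5 and 13283.5 UMIs.

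Icam1, the ligand of the integrins LFA-1 and Mac-1, spanned the widest range of the 6 genes, 113-fold. It stood at 578 CPM in fibroblasts, of which 2 libraries had 20 cells, with 746 CPM in library 1 and 303 CPM in library 5. Next came Fxyd2 and Aqp1 macrophages, named for their markers, at 315 CPM (5 libraries, 171 to 425 CPM) and resident Lyve1 macrophages at 223 CPM (6 libraries, 118 to 315 CPM). Migratory dendritic cells, type 2 dendritic cells, natural killer cells and gamma-delta type T cells lay between 187 and 205 CPM, with overlapping library ranges. Immature neutrophils (18.1 CPM), promyelocyte-type precursors (11.9 CPM) and cycling neutrophil precursors (5.10 CPM) were lowest. The thinned share was 52.0% in fibroblasts, 38.7% in Fxyd2 and Aqp1 macrophages and 1.05% in cycling neutrophil precursors. Unthinned, it was 70.8%, 59.1% and 6.08% (95% interval 4.88 to 7.47), at median depths of 14873.5, 11598.5 and 28759 UMIs. In the annotation another gene, on the opposite strand and without a row here, overlaps the 3′ end of Icam1.

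Alcam, the gene of CD166 and the ligand of the T cell molecule CD6, was highest in mature neutrophils at 1333 CPM, with 6 libraries from 1150 to 1484 CPM. Type 1 dendritic cells (1047 CPM), type 2 dendritic cells (969 CPM) and nonclassical monocytes (930 CPM) followed, and the 4 ranked macrophage classes stood between 690 and 878 CPM. The neutrophil range was overlapped by the highest libraries of type 1 dendritic cells (1268 CPM), nonclassical monocytes (1220 CPM) and resident Lyve1 macrophages (1207 CPM). Pro-B cells (40.8 CPM) and pre-B cells (31.8 CPM) were lowest. Cd6 itself was highest in regulatory T cells (290 CPM) and conventional Cd4 T cells (248 CPM). In conventional Cd4 T cells Alcam ranged from 60.7 CPM in library 2 to 585 CPM in library 6, the second highest ratio between libraries for the gene over the 16 classes with 20 cells in every library. After thinning, 76.3% of mature neutrophils and 5.28% of pre-B cells held an Alcam UMI, and unthinned 84.1% and 8.17%, at median depths of 5140.5 and 5456 UMIs.

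The 6 genes, chosen with earlier results of these data known, differed more between classes than the median gene. That contrast is a description and no test. The highest class over the lowest was 20.8-fold for Cd44 and 113-fold for Icam1 at the extremes, with a median of 61.8-fold over the 6, against 9.71-fold over the 8106 genes that reached 20 CPM in a class and were above 0 in all. Their orders of classes were not alike. Over the 28 classes, Pearson's r of log2(CPM + 1) was highest for Cd44 with Alcam (0.72) and lowest for Pecam1 with Alcam (-0.52). Cell classes share libraries and depth, so these values describe the classes and were not tested.

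Neutrophils gave the largest body of data, with 6402 mature and 4633 immature cells. Differences between related classes were called when the pooled CPM differed at least 2-fold and in the same direction in every library with 20 cells of both classes. The call is a description without a test, and folds carry 95% intervals for counting error only. From immature to mature neutrophils 5 of the 6 genes were called, where 19.7% of 7958 genes were called in either direction, 14.9% as higher and 4.79% as lower in mature cells. The median log2 fold was 1.44 for the 6 genes and 0.23 for all genes tested. Without the 50 most abundant genes in the denominator, 14.7% of 8973 genes were called, 5.83% as higher and 8.9% as lower. The median log2 fold of all genes was then -0.15. Whether genes as a whole leaned higher or lower in mature cells thus depended on the denominator. The folds below keep all genes in it.

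Selplg rose from 144 to 405 CPM (2.80-fold, 2.74 to 2.87), with folds from 2.16 to 3.43 in single libraries. Cd44 rose from 864 to 2281 CPM (2.64-fold, 2.61 to 2.67). Alcam rose from 366 to 1333 CPM (3.64-fold, 3.59 to 3.69), and its lowest mature library, 1150 CPM, was above its highest immature library, 634 CPM. Both neutrophil groups were thus separate for Alcam, as they were for Cd44, whose libraries ran from 730 to 1423 CPM in immature and from 1980 to 3000 CPM in mature cells. The share of all genes with library ranges that separate in this way is not given, for this or any other pair of classes. Separate ranges are therefore a description, and how unusual they are cannot be read from the values. Icam1 rose from 18.1 to 51.7 CPM (2.86-fold, 2.67 to 3.06), but its libraries overlapped, from 9.62 to 49.4 CPM in immature and from 35.7 to 129 CPM in mature cells. Few cells carried it, with a UMI in 9.07% of immature and 10.7% of mature cells (2.69% and 5.56% after thinning, at median depths of 12603 and 5140.5 UMIs). Library 3 was the highest in both groups, and the fold ranged from 2.65 to 3.07 with any library left out. Spn went the other way, from 24.2 to 8.45 CPM, 0.35 of the immature level (0.31 to 0.39), and was lower in mature cells in 6 of 6 libraries. Mature cells held fewer UMIs in all, and per cell the same step was smaller, from 2.26 to 2.96 UMIs for Selplg, 13.5 to 16.7 for Cd44, 0.28 to 0.38 for Icam1 and 5.72 to 9.73 for Alcam, none of them 2-fold. Pecam1 was not called, with 11.04 CPM in immature and 16.05 CPM in mature cells (1.45-fold, 1.31 to 1.61). Per cell it went the other way, from 0.17 to 0.12 UMIs.

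The same genes were followed through promyelocyte-type precursors, cycling precursors, immature and mature neutrophils. Spn stood at 105, 53.9, 24.2 and 8.45 CPM, and it fell at every step in 6 of 6 libraries, to 0.08 of its first level. Lower levels at the last than at the first stage were called for 44.6% of genes. The fall was also seen per cell, with 3.78, 1.71, 0.38 and 0.06 UMIs of Spn. Cd44 stood at 354, 439, 864 and 2281 CPM and rose at every step in 6 of 6 libraries, where 18.5% of genes were called as higher at the last stage. Per cell its increase was smaller, with 12.8, 13.9, 13.5 and 16.7 UMIs. Mature neutrophils held far less RNA, with a median of 5140.5 UMIs against 35282.5 UMIs in promyelocyte-type precursors. Selplg (113, 66.7, 144 and 405 CPM) and Icam1 (11.9, 5.10, 18.1 and 51.7 CPM) dipped in the cycling cells. Per cell, Selplg did not exceed its first level, with 4.08 UMIs at the first and 2.96 at the last stage, and Icam1 held 0.43 and 0.38 UMIs. Pecam1 was called as lower at the last stage, with 48.9, 6.08, 11.04 and 16.05 CPM. Per cell it held 1.76, 0.19, 0.17 and 0.12 UMIs, so its later rise in CPM was not seen per cell. Alcam stood at 247, 350, 366 and 1333 CPM, with 8.92, 11.1, 5.72 and 9.73 UMIs per cell. Scale therefore decided the direction between the first and last stage for Selplg and Icam1. Spn and Pecam1 were lower, and Cd44 and Alcam higher, at the last stage than at the first on both scales. Per cell, however, neither Cd44 nor Alcam rose at every step, and Alcam ended below its cycling stage. Levels per cell are given for the pooled cells only. From promyelocyte-type precursors to immature neutrophils, 3 of the 6 genes were called, Cd44 as higher and Spn and Pecam1 as lower, where 59.5% of genes were called, 12.6% as higher and 47% as lower. The 50 most abundant genes, many of them granule genes, took a different share of the UMIs in these classes, and leaving them out of the denominator moved the folds of all genes together. The median log2 fold of all genes went from -1.03 to -0.46, and 54.7% of genes were then called, 20% as higher and 34.6% as lower. With this shift Icam1 and Alcam also passed 2-fold, which makes 5 of the 6 genes.

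**Figure D2:**
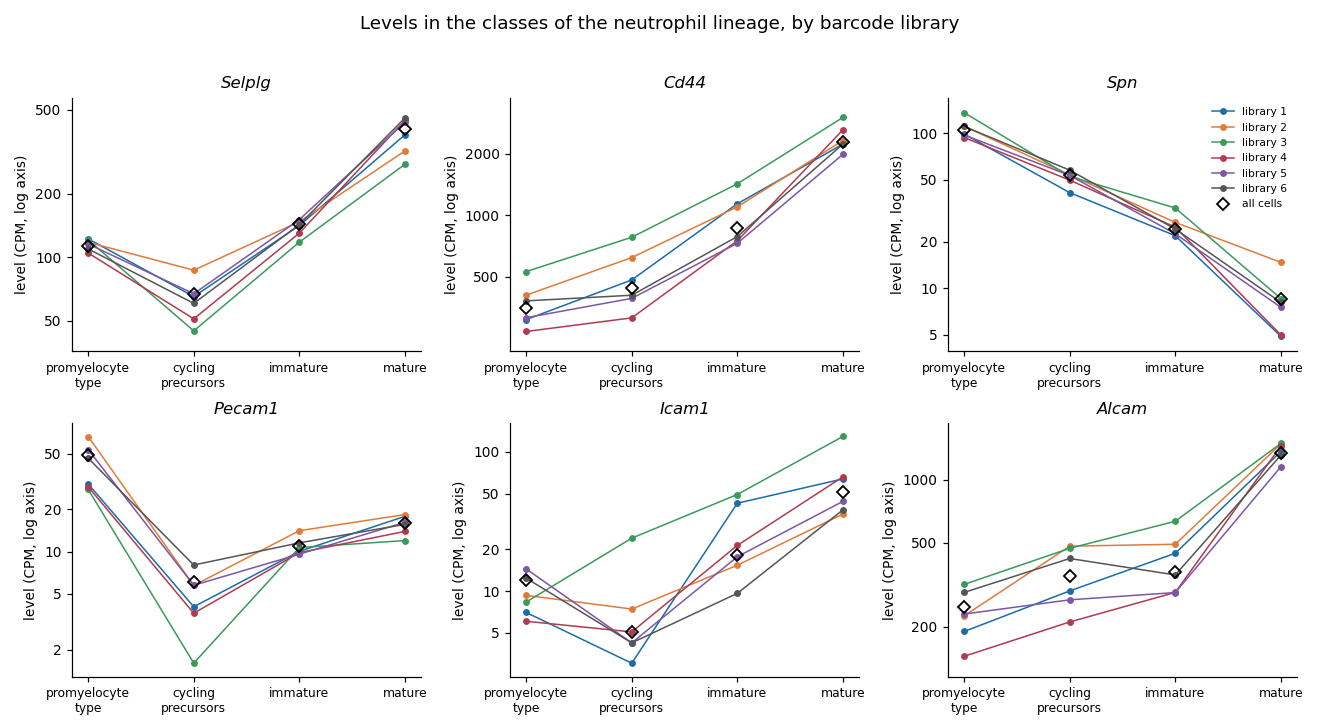
Level of each gene in CPM (y axis, log scale) in 4 classes of the neutrophil lineage (x axis), with a line for each barcode library and open diamonds for all cells. Cd44 climbed in all 6 libraries to 1980 to 3000 CPM in mature cells, and Spn fell in all 6 to 4.89 to 14.7 CPM.

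The genes around these molecules were examined in 7 lists. Selp, the P-selectin gene, was not called between mature and immature neutrophils (10.4 against 6.41 CPM), and Sele, the endothelial E-selectin, reached at most 5.14 CPM in any ranked class. Of 9 tested enzymes that build selectin ligands, 5 were called as higher in mature neutrophils and none as lower. Over all genes tested, 14.9% were called as higher and 4.79% as lower. Without the 50 most abundant genes in the denominator these shares were 5.83% and 8.9%. The folds of the enzymes with that denominator are not given, so the count of 5 belongs with the first shares only. The median log2 fold of all genes went from 0.23 to -0.15 with it, so folds near 2 may not pass there. The 5 enzymes were named after their values were seen. St3gal6, a sialyltransferase of selectin ligands, rose 5.93-fold from 9.60 to 56.9 CPM, and Gcnt1, which makes the branch that carries the selectin-binding sugar on PSGL-1, rose 5.30-fold from 16.3 to 86.6 CPM. Tpst2, which sulphates tyrosines such as those of PSGL-1, rose 2.06-fold from 46.8 to 96.3 CPM, and the sialyltransferases St3gal4 and St3gal3 rose 2.05-fold and 2.36-fold. The galactosyltransferases B4galt1 (71.4 against 73.3 CPM) and C1galt1 (19.4 against 19.7 CPM) were not called. The median log2 fold of this list was 1.04. The fucosyltransferase genes Fut4 and Fut7 were low, at most 14.2 CPM (migratory dendritic cells) and 22.7 CPM (basophils) in any ranked class. Mature cells held fewer UMIs in all, with a median of 5140.5 against 12603 in immature cells. The 6402 mature cells held 46737551 UMIs together and the 4633 immature cells 72383151 UMIs. By these totals the CPM folds of Tpst2 and St3gal4 were no rise per cell. Levels per cell are not given for these enzymes, and the other folds would be smaller per cell.

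Of the 2 other ligand cores tested, Cd24a and Glg1, neither was called. Of 6 other immunoglobulin-type molecules and partners tested, F11r and Cd6 were called as higher and Cd177 as lower. Cd177, a neutrophil surface protein that binds PECAM-1, fell from 862 to 238 CPM. Of the 4 integrin chains that pair to bind ICAM-1, Itgax was called as higher (21.0 against 5.89 CPM). Itgam stood at 540 CPM in immature and 333 CPM in mature cells, Itgb2 at 404 and 386 CPM and Itgal at 140 and 220 CPM, all within 2-fold. None of the 6 linkers and sheddases was called. Among them Adam8, a sheddase, stood at 445 CPM in immature and 708 CPM in mature cells and Msn, the gene of moesin, which ties PSGL-1, CD43 and CD44 to actin, at 309 and 398 CPM. Of the hyaluronan genes 1 was tested, and Stab1 was called as higher (26.5 against 9.27 CPM). Fibroblasts held the hyaluronan synthases, with Has1 at 1399 CPM and Has2 at 220 CPM, while Cd44 stood at 1223 CPM in the same cells.

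**Figure D3:**
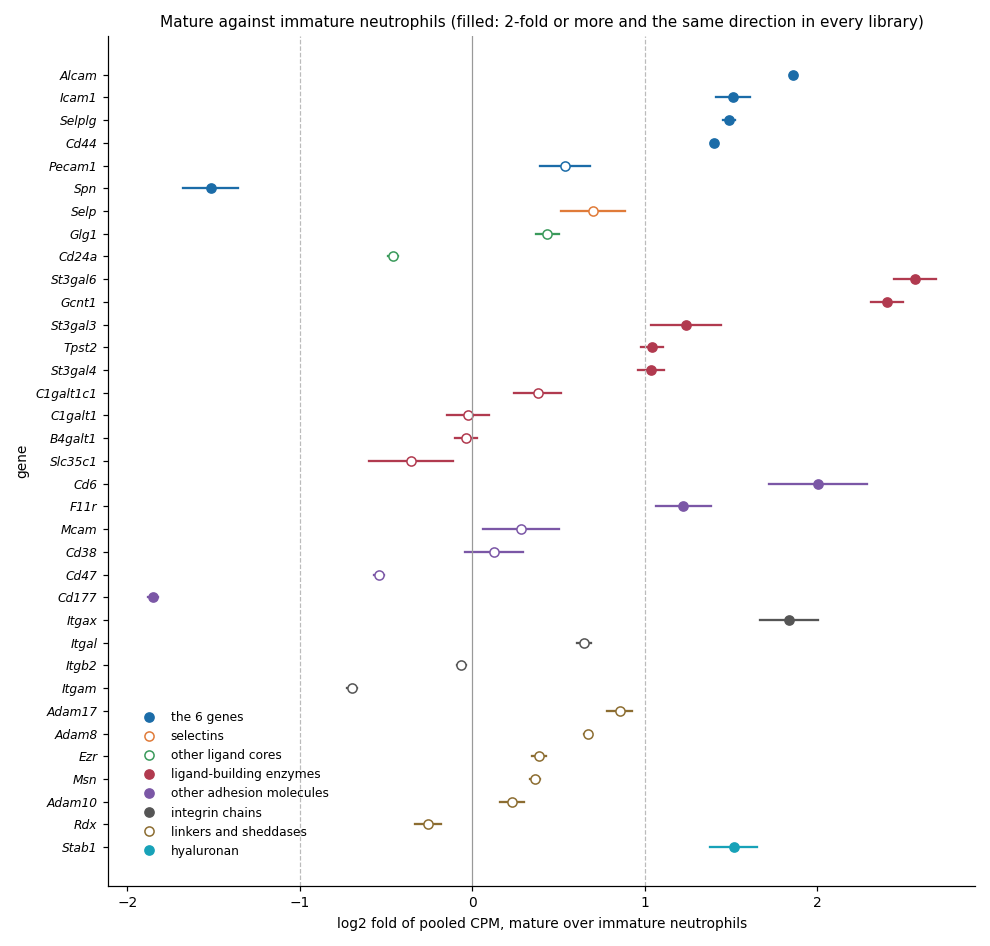
Log2 fold of the pooled CPM in mature over immature neutrophils (x axis) for the 6 genes and tested genes of 7 pathway lists (y axis), with 95% intervals for counting error. Filled points are 2-fold or more with the same direction in all 6 libraries, dashed lines mark 2-fold, and 5 of the 9 enzymes lie past it on the right.

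Monocytes and macrophages differed mainly in Spn, Pecam1 and Icam1. In nonclassical against classical monocytes 2 of the 6 genes were called, both as higher, where 18.3% of genes were called, 6.01% as higher and 12.3% as lower. Nonclassical monocytes patrol the vessel wall, while classical monocytes are recruited to inflamed tissue. Pecam1 stood at 339 CPM in nonclassical and 23.1 CPM in classical monocytes (14.7-fold, 13.4 to 16.1). In the 4 libraries with 20 nonclassical monocytes it ranged from 150 to 649 CPM, and no library of classical monocytes passed 30.5 CPM, so the groups did not overlap. Spn was 4.45-fold higher (3.97 to 4.96), at 201 against 45.3 CPM, and again all 4 nonclassical libraries were above all 6 classical ones, which ran from 19.1 to 60.5 CPM. Selplg, Cd44, Icam1 and Alcam differed by less than 2-fold. Of the genes that bind ICAM-1, Itgal was 6.96-fold higher in nonclassical monocytes (633 and 90.9 CPM).

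Arg1 inflammatory macrophages differed from classical monocytes in 1 of the 6 genes, Spn, where 14.5% of genes were called, 6.33% as higher and 8.22% as lower. Spn stood at 10.3 CPM in these macrophages against 45.3 CPM, and it was lower in 6 of 6 libraries. Icam1 stood at 63.4 and 35.3 CPM (1.79-fold, 1.62 to 1.98), and it passed 2-fold when 4 markers were asked of a cell in place of 3. Resident Lyve1 macrophages, a tissue population named for its marker, differed from classical monocytes in 3 of the 6 genes, where 25.8% of genes were called, 15.1% as higher and 10.7% as lower. Icam1 was 6.30-fold higher (6.03 to 6.58), with 118 to 315 CPM in the resident macrophages and 19.9 to 61.4 CPM in the monocytes, so that all 6 libraries of the first lay above all 6 of the second. Spn (0.25 of the monocyte level, 0.23 to 0.29) and Pecam1 (0.26, 0.22 to 0.31) were lower in 6 of 6 libraries. Selplg was just outside the call, at 116 against 231 CPM, 0.503 of the monocyte level.

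Cxcl9 inflammatory macrophages were set against Arg1 inflammatory macrophages. The first class is marked by interferon-induced genes such as Cxcl9 and Gbp2. Only 3.45% of genes were called here, 1.87% as higher and 1.58% as lower in the Cxcl9 class, and Icam1 was among them. It stood at 177 CPM in Cxcl9 and 63.4 CPM in Arg1 inflammatory macrophages (2.79-fold, 2.49 to 3.12). In the 5 libraries with 20 cells of both classes the Cxcl9 class ran from 152 to 206 CPM, and the Arg1 class ran from 31.3 to 74.2 CPM over its 6 libraries, so the ranges did not overlap. Within single libraries the fold was 2.05 to 3.55. The remaining 5 genes stood at 0.82 to 1.18 of their level in the Arg1 class, with Cd44 at 2152 and 2283 CPM.

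**Figure D4:**
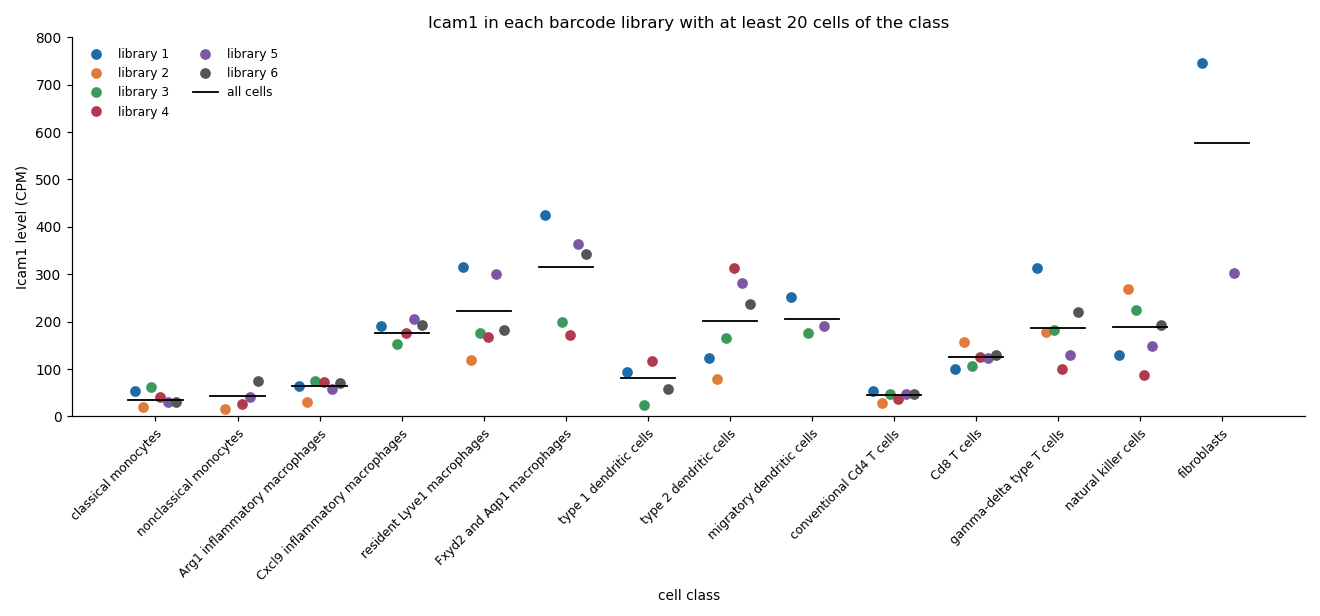
Icam1 level in CPM (y axis) in myeloid, T, natural killer and stromal classes (x axis), with a point for each barcode library that has at least 20 cells of the class and a line for all its cells. Cxcl9 inflammatory macrophages (152 to 206 CPM) sit above Arg1 inflammatory macrophages (31.3 to 74.2 CPM), and Cd8 T cells (99.6 to 158 CPM) above conventional Cd4 T cells (27.6 to 52.6 CPM).

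In migratory against type 2 dendritic cells, 3 of the 6 genes were called, all as lower, where 24.9% of genes were called, 8.6% as higher and 16.2% as lower. Migratory dendritic cells are those with Ccr7, the receptor that guides them to lymph nodes, and 3 libraries held 20 of them. Cd44 stood at 474 against 1103 CPM, Pecam1 at 8.94 against 41.1 CPM and Spn at 8.94 against 20.7 CPM. The Pecam1 and Spn levels of migratory cells rest on 17 UMIs each, and Spn was not called without library 3. Selplg was higher in 3 of 3 libraries but within 2-fold (523 and 297 CPM). Type 1 dendritic cells held less Icam1 than type 2 cells, 80.9 against 201 CPM (0.40, 0.35 to 0.46), in 4 of 4 libraries, and this was the 1 gene called where 13% of genes were, 6.97% as higher and 6.02% as lower. In type 1 cells Pecam1 was 291 CPM in library 6 and 11.01 to 39.92 CPM in the other 3 libraries, so its pooled 68.2 CPM rests on library 6.

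B cells were ordered as pro-B, pre-B and Ms4a1 B cells. Spn fell from 52.0 to 18.6 and 6.18 CPM, at every step in 6 of 6 libraries, and its pro-B level was 8.41-fold the Ms4a1 level (6.75 to 10.6). The Ms4a1 level rests on 98 UMIs in 2510 cells, against 2.79 CPM in fibroblasts. CD43 is a known marker of early B cell stages. Selplg fell from 221 to 200 and 105 CPM (2.10-fold between the ends), at every step in 4 of 6 libraries. Its pro-B (195 to 242 CPM) and pre-B (183 to 238 CPM) libraries overlapped. Between the first and the last of these stages, 9.23% of genes were called as higher and 15.1% as lower. Alcam went up, from 40.8 and 31.8 to 217 CPM, and the Ms4a1 libraries, 138 to 362 CPM, all lay above the pro-B libraries, 20.6 to 73.4 CPM. Between pro-B and Ms4a1 B cells 3 of the 6 genes were called, Spn and Selplg as higher and Alcam as lower in pro-B cells, where 24.5% of genes were called, 15.2% as higher and 9.29% as lower. Cd44 (110, 189 and 166 CPM), Pecam1 (239, 369 and 284 CPM) and Icam1 (37.9, 19.3 and 34.3 CPM) were not called between the ends.

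Antibody-secreting cells, 106 in all with 20 cells in 3 libraries, were set against Ms4a1 B cells, and 3 of the 6 genes were called where 25.5% of genes were, 6.32% as higher and 19.2% as lower. Cd44 was 4.54-fold higher (755 and 166 CPM). Of the defining markers of the class, Xbp1 had a UMI in 93.4% of its cells and Sdc1 in 87.7%, but Prdm1 in 45.3% and Jchain, the joining chain of secreted antibodies, in 34.9%, so most of these cells showed no Jchain and the class is called by its gate. The 3 libraries stood at 410, 551 and 558 CPM, below the pooled level, so cells from libraries with fewer than 20 of them raised it. Alcam was called at 2.01-fold (437 and 217 CPM), but its folds within the 3 libraries were 1.01 to 1.61. Itgam, an integrin gene of myeloid cells, also stood higher in the antibody-secreting cells, at 57.7 against 8.33 CPM, as did Cd177 at 18.4 against 2.84 CPM. The part of myeloid RNA in the Cd44 and Alcam levels was not tested. Pecam1 was lower, at 97.0 against 284 CPM, in 3 of 3 libraries.

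Cd8 T cells and natural killer cells held more Icam1 and less Cd44 than conventional Cd4 T cells. In Cd8 T cells 2 of the 6 genes were called, where 6.61% of genes were, 3.01% as higher and 3.6% as lower. Cd44, which marks antigen-experienced T cells, stood at 262 CPM in Cd8 and 856 CPM in conventional Cd4 T cells (0.31, 0.28 to 0.33), and the libraries ran from 176 to 408 CPM and from 751 to 1195 CPM. Icam1 stood at 125 and 45.4 CPM (2.77-fold, 2.22 to 3.47), with 99.6 to 158 CPM in the Cd8 libraries and 27.6 to 52.6 CPM in the Cd4 libraries. Neither gene's libraries overlapped between the classes. Without library 2, Pecam1 and Alcam were called as lower too, which makes 4 genes. In natural killer cells 3 of the 6 genes were called, where 10.6% of genes were, 5.61% as higher and 4.97% as lower. Icam1 was 4.16-fold higher (189 CPM, 3.36 to 5.19), while Cd44 stood at 0.34 of the Cd4 level (287 CPM) and Pecam1 at 0.47 (99.6 CPM). The natural killer libraries ran from 87.2 to 269 CPM for Icam1, all above the Cd4 libraries. Both comparisons used the same conventional Cd4 T cells.

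Regulatory T cells held 138 CPM of Icam1 against 45.4 CPM (3.03-fold, 2.35 to 3.92), the 1 gene called of the 6 where 14.4% of genes were (7.8% as higher and 6.63% as lower), but library 3 alone had 20 cells of both classes, with a fold of 2.49. Mast cells and basophils had no library with 20 cells of both. The pooled folds of all 6 genes passed 2-fold, and 38.4% of genes did so, 24.5% as higher and 13.8% as lower in mast cells. Cd44 was 9.93-fold higher in mast cells (2030 and 205 CPM), and Pecam1 stood at 22.2 against 288 CPM and Spn at 31.8 against 242 CPM. These values have no check between libraries.

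**Figure D5:**
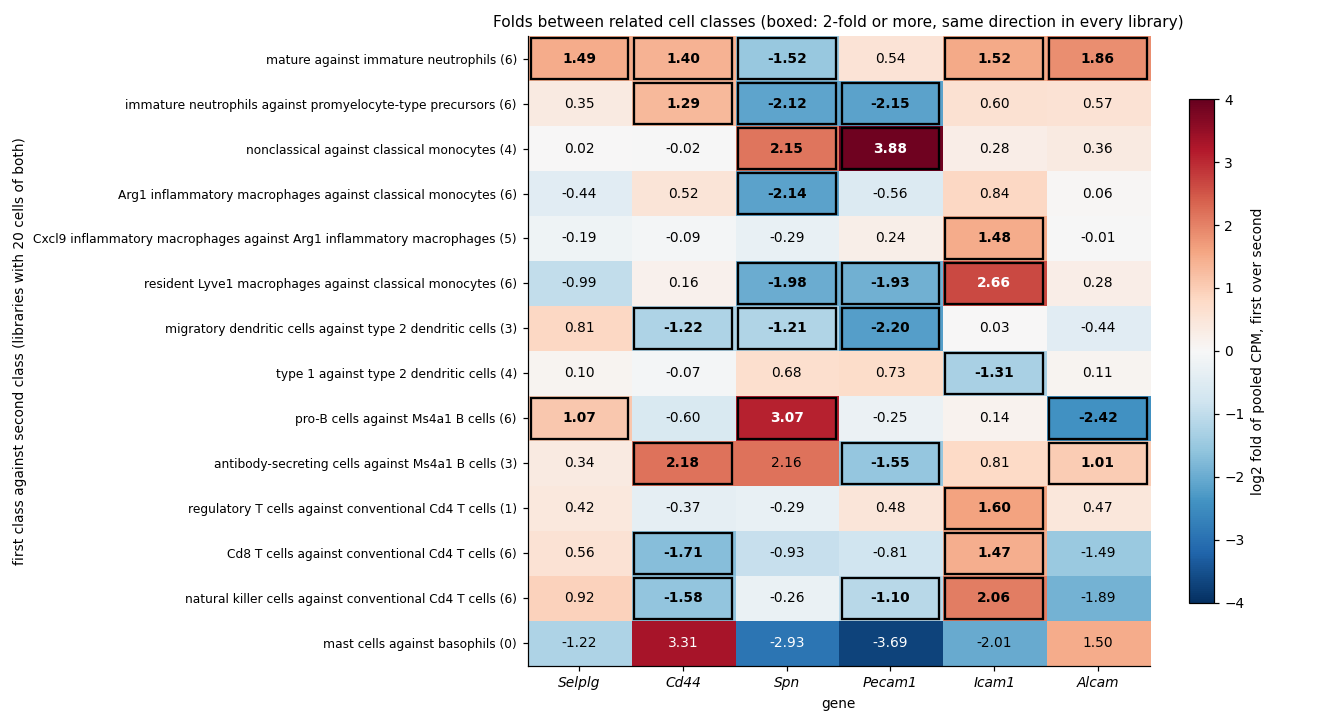
Log2 fold of the pooled CPM of each gene (x axis) between 14 pairs of cell classes (y axis, with the number of libraries that hold 20 cells of both), red for higher and blue for lower in the first class. Boxes mark folds of 2 or more with the same direction in every such library, and Icam1 was boxed in 7 of 13 pairs, 6 of them as higher.

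Over the 13 pairs with such libraries Icam1 and Spn were called in 7 each, Cd44 and Pecam1 in 6, Alcam in 3 and Selplg in 2. Icam1 was called as higher in 6 of its 7 and Spn and Pecam1 as lower in 5 of theirs. Over the 6668 genes tested in all 13 pairs, the median gene was called in 1 pair, with quartiles of 1 and 3. Several pairs share a class, and 3 of the 6 higher calls of Icam1 were made against the same conventional Cd4 T cells, so these counts are not independent. Higher and lower refer to the class named first.

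The libraries themselves differed. In the 16 classes with 20 cells in every library, the highest over the lowest library had a median of 2.52-fold for Icam1, 2.36-fold for Alcam, 2.16-fold for Pecam1, 1.89-fold for Spn, 1.71-fold for Cd44 and 1.47-fold for Selplg, against 1.56-fold for the median gene. Library 3 held the highest Cd44 in 8 of the 16 classes and library 6 in 6. The highest Icam1 was in library 3 in 5 classes and in library 1 in another 5. Library 3 held the lowest Selplg in 6. In mature neutrophils library 3 stood at 3000 CPM of Cd44 against 1980 to 2610 CPM in the others, at 129 CPM of Icam1 against 35.7 to 66.1 CPM and at 276 CPM of Selplg against 319 to 457 CPM. In classical monocytes it again held the highest Cd44 (2231 CPM) and Icam1 (61.4 CPM) and the lowest Selplg (178 CPM). Library 2 held the lowest Icam1 in 6 classes. In type 2 dendritic cells, by contrast, Icam1 was highest in library 4 (313 CPM), with library 3 at 164 CPM. Whether these differences follow the treatment cannot be told from the table.

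The genes whose levels over the 28 classes were most like each of the 6 were found among 10570 genes that reached 20 CPM in a class. They were Epb41, Ankrd44 and Akna for Selplg (Pearson's r of log2(CPM + 1) 0.80 to 0.78), Fos, Nrp1 and Fnip2 for Cd44 (0.86), and Anp32a, Cmas and Impa2 for Spn (0.78 to 0.76). They were Secisbp2, A930015D03Rik and Kdm5a for Pecam1 (0.89 to 0.86), Sertad2, Tbc1d12 and Pea15a for Icam1 (0.84 to 0.82), and Cd80, Wfdc17 and Stx12 for Alcam (0.89 to 0.86). These values are descriptions over classes that share libraries and depth.

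Beyond neutrophils, the lists were read by where their genes were highest. Of the other ligand cores 6 of 8 were in the table and 4 reached 20 CPM, with Cd24a highest in pre-B cells (1007 CPM), Glg1 in Ms4a1 B cells (168 CPM) and Cd34 in fibroblasts (331 CPM). Of the enzymes 13 of 14 were in the table and 12 reached 20 CPM. B4galt1 was highest in natural killer cells (387 CPM), St3gal4 in nonclassical monocytes (172 CPM) and Tpst2 in gamma-delta type T cells (157 CPM). Of 13 other adhesion molecules 9 reached 20 CPM, with Cd47 highest in plasmacytoid dendritic cells (965 CPM), Cd38 in pre-B cells (291 CPM) and F11r in Fxyd2 and Aqp1 macrophages (202 CPM). All 4 integrin chains and all 6 linkers and sheddases reached 20 CPM, with Itgal, Itgb2 and Msn highest in nonclassical monocytes (633, 527 and 983 CPM), Ezr in Ms4a1 B cells (405 CPM) and Adam10 in pre-B cells (637 CPM). Of the 6 hyaluronan genes 4 reached 20 CPM, and Stab1, a scavenger receptor, was highest in resident Lyve1 macrophages (313 CPM).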

How the data were processed

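The authors prepared 3′ single-cell libraries (Chromium kit) from sorted CD45+ synovial cells of 6 samples, ran Cell Ranger 7 against mm10, removed ambient RNA with SoupX and doublets with DoubletFinder, and filtered cells in Seurat. They deposited 1 table of UMI counts per gene and cell, not scaled for depth. Whether intronic reads were counted is not given in the sources used here. The table stores zeros where the ambient correction emptied an entry, 1.06 to 3.84% of the entries of the 6 genes. No cell could be tied to a treatment, so the planned edgeR comparison was not run and no test was made. The labels call the samples biological replicates and do not give the number of animals in each.

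A marker counted as present with at least 1 UMI and 5% of its own 99.5th percentile (UMIs per 10000). A cell took the lineage with the highest share of its markers present, from 3 markers up, and ties took none. Macrophages were then split by the same rule. Neutrophils took the stage with more markers present, ties counted as immature, and cycling precursors needed 3 cycling and 3 precursor markers. T cells were split by Cd4, Foxp3, Cd8a or Cd8b1, and Trdc, where a single marker was enough. B cell stages were split by counts of stage markers. These rules were set after the data were seen, and 1990 cells (6.46%) sat at exactly 3 markers of their lineage. Levels are UMIs per 1000000 UMIs of a class (CPM) with exact Poisson intervals, given per library from 20 cells. Shares carry exact binomial intervals, and thinning to 3000 UMIs used the expected share. Cells with fewer UMIs were left out of thinned shares. Intervals cover counting error only. A gene was tested in a pair with 5 CPM in either class and 20 UMIs in both together. The calling step was tested on simulated data for 2 comparisons. Of 200 genes changed 4-fold it recovered 100% in mature against immature neutrophils and 100% in type 1 against type 2 dendritic cells. Of unchanged genes it called 0% and 0.263%. Apart from the changed genes, all simulated libraries of both classes shared 1 profile, so they held counting error and no spread between libraries. The share of false calls in the real data cannot be read from these values. Sequences came from RefSeq, gene positions from GENCODE M21, which held 19576 of the symbols (96.0%).

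The 6 genes and the gene lists were chosen with earlier results of these data known. Beside the 6 genes, at most 4 genes per list are named, those with the highest level over all cells, and further names were chosen after their values were seen. A gene of the lists is not reported here. Likeness took 3 genes per gene, leaving out gating markers. Scripts ran in Python 3.11.15 with scipy 1.17.1, numpy 2.4.6 and pandas 2.3.3, and matplotlib 3.10.9 drew the figures. The closing section gives the alternatives: a stricter and a looser gate, another denominator, equal weight of cells, other depths and each library left out.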

Additional observations from a re-analysis of the deposited data

How the results depend on the processing

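No paired analysis was possible because the barcode numbers carry no treatment and no replicate number of the labels. Of 336 folds between classes recomputed under 4 alternatives (a gate of 4 or of 2 markers, a denominator without the 50 most abundant genes, equal weight of cells), 265 stayed within their counting interval, 71 moved and 0 called folds changed direction. With each library left out in turn, 406 of 504 stayed within it, 98 moved and 0 called folds changed direction. The gates of 4 and of 2 markers scarcely changed the T cell subclasses, which single markers split. Conventional Cd4 T cells numbered 201, 199 and 201 with 3, 4 and 2 markers, and Cd8 T cells 284, 283 and 284. Folds between T cell subclasses were thus hardly put to the test by these gates. The number of the 6 genes called moved by over 1.5 times in 4 cases. With 4 markers it was 2 for Arg1 inflammatory macrophages against classical monocytes, where Icam1 was added. Without the 50 most abundant genes it was 5 for immature neutrophils against promyelocyte-type precursors. With equal weight of cells it was 1 for antibody-secreting against Ms4a1 B cells, where Pecam1 and Alcam no longer passed. With a library left out it ranged from 2 to 4 for Cd8 against conventional Cd4 T cells, and it was 4 without library 2. The other ranges with a library left out were 2 to 4 for antibody-secreting cells and for natural killer cells, 3 to 4 for resident Lyve1 macrophages, 2 to 3 for migratory dendritic cells and 4 to 6 for mast cells, and in the other 8 pairs the number did not change. The class with the highest level was as given for 5 or 6 of the 6 genes with a library left out, for 6 with the stricter gate, for 5 with the looser gate or the other denominator, where Cd44 was highest in mature neutrophils, and for 4 with equal weight of cells, where Spn was also highest in nonclassical monocytes in place of basophils. The class with the highest share of positive cells was as after thinning to 3000 UMIs for 5 genes at 1500 UMIs, for 3 genes without thinning (an alternative added after seeing the data) and for 2 genes when stored zeros also counted as positive. The cause of these shifts was not tested. Classes with few cells, such as basophils (38) and fibroblasts (130), and genes at a few CPM rest on few UMIs.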
